A study of Mus musculus with 9 samples.

Results

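Retinoic acid, the active form of vitamin A, is made, carried and broken down by a small set of proteins, and 9 mouse genes of this kind were followed across 9 RNA-seq libraries of 55416 annotated genes. The genes were *Rbp4* and *Stra6* (carriage and uptake of retinol), *Aldh1a1*, *Aldh1a2* and *Aldh1a3* (synthesis of retinoic acid), *Dhrs3* (return of retinal to retinol), *Crabp1* and *Crabp2* (binding of retinoic acid inside the cell) and *Cyp26b1* (breakdown of retinoic acid). They were chosen by their function in retinoid metabolism and selected with their levels in these 9 libraries already known, so their levels and calls are a description. Adjusted p serves for these 9 genes only as a threshold of the calls, and their p-values are not printed.

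The cells were AdvSca1-SM cells, resident progenitors of the arterial adventitia that descend from smooth muscle, isolated from the aorta and carotid arteries. Per the study's methods, they were sorted as YFP-positive, Sca1-positive cells from pooled adult SM22α-Cre mice with a ROSA26-YFP reporter on a C57BL/6 background and then expanded in culture. The Cre is driven by the smooth muscle promoter SM22α (*Tagln*), so that any medial smooth muscle cell carrying Sca1 would enter the same gate. There were 3 libraries in each of 3 groups. The Stem group received vehicle as the undifferentiated baseline of cells kept in stem cell medium, which the methods define as αMEM with 10% fetal bovine serum, basic fibroblast growth factor and epidermal growth factor. The TGF-β group was growth-arrested in 0.1% fetal bovine serum and then kept for 72 hours in DMEM with 0.1% serum and 5 ng/mL TGF-β1, the cytokine that drives cells towards a myofibroblast state. The Both group had the same medium and TGF-β1 together with 50 μM PFI-3, a small molecule that binds the bromodomains of Brg1 and related chromatin remodelers. All groups carried 0.1% DMSO. Medium, serum level and cytokine changed together between Stem and TGF-β, and their parts cannot be told apart, whereas TGF-β and Both differed in PFI-3 alone. The replicates came from cells of pooled mice, so that every p-value below measures the spread between these libraries and not between mice.

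Retinol travels in blood on RBP4 and can enter cells through STRA6. Inside the cell it is oxidised to retinal, which the retinal dehydrogenases turn irreversibly into retinoic acid, while DHRS3 takes retinal back to retinol. Retinoic acid is carried by CRABP1 and CRABP2, the latter to the nucleus, where it activates the receptors RAR and RXR, and it is cleared by the CYP26 hydroxylases. *Dhrs3*, *Cyp26a1*, *Cyp26b1* and *Crabp2* are themselves described as genes that retinoic acid can induce, so that the pathway is known for feedback.

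Total counts ran from 35686291 to 47741128 per library. Levels below are normalized counts, which are read counts scaled by edgeR's trimmed mean of M values to the mean effective library of 41184338 reads, and errors are SD over 3 libraries unless named otherwise. A gene was called at an adjusted p under 0.05 in the quasi-likelihood test of edgeR with a log2 fold change above 1 or below -1. Of the 9 genes, 7 had enough reads to be tested among 14879 genes, and *Rbp4* and *Stra6* did not. Stem replicate 2 stood apart from the other Stem libraries, with a chi-square per degree of freedom of 98.9 and 121 against 7.12 between replicates 1 and 3.

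Between Stem and TGF-β, the gene that rose furthest was the retinoic acid carrier *Crabp2*, followed by the retinal reductase *Dhrs3*. The hydroxylase *Cyp26b1* and the carrier *Crabp1* fell, and the 3 retinal dehydrogenases moved by less than 2-fold in both directions. In all, 2 of the 7 tested genes were called higher and 2 lower, where 10.6% and 14.5% of all tested genes were called higher and lower. All 7 passed the adjusted p threshold without the fold change minimum, as did 75% of all tested genes, and all 7 had groups that did not overlap, as did 76.8%. The median log2 fold change over the 7 genes was -0.95, the value of *Aldh1a3*, and that over all tested genes was -0.0027. Since the 7 were chosen and moved in both directions, their median shows no common shift.

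**Figure D1:**
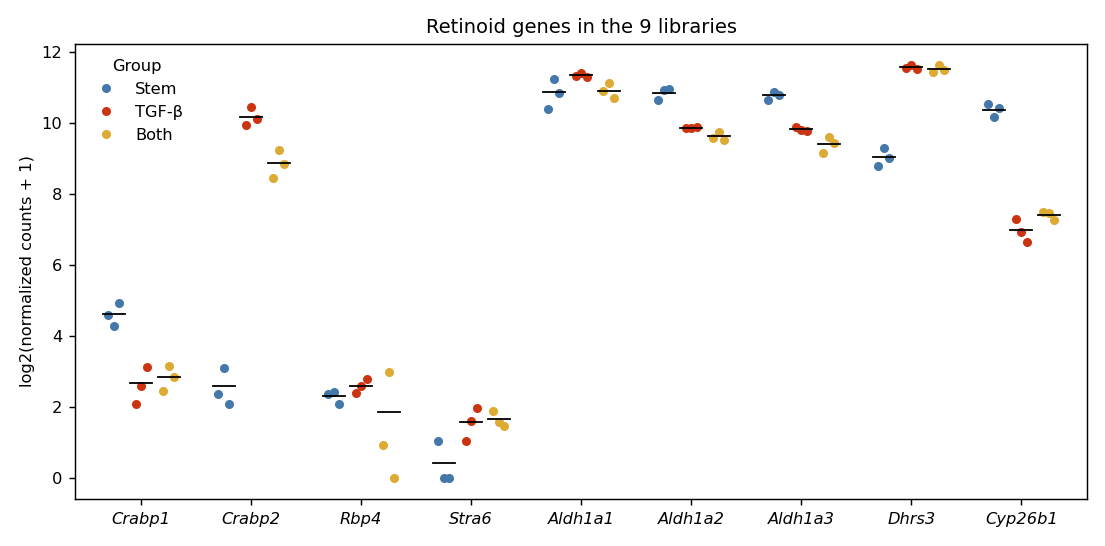
Levels of the 9 retinoid genes, as log2(normalized counts + 1) on the vertical axis, with 1 point per library and a black bar at the log2 of the group mean plus 1. *Crabp2* lies near the bottom of the plot in Stem and near the top in TGF-β, *Cyp26b1* moves the other way, and *Rbp4* and *Stra6* stay at a few reads in every group.

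*Rbp4*, the plasma carrier of retinol, had 4, 4 and 3 reads in the Stem libraries, 4, 5 and 6 in TGF-β and 1, 7 and 0 in Both. *Stra6*, the receptor for RBP4, had 1, 0 and 0 reads in the Stem libraries, 1, 2 and 3 with TGF-β and 3, 2 and 2 with PFI-3 added. With these counts the ratio of TGF-β to Stem was 1.30 for *Rbp4* (95% interval 0.558 to 3.13) and 5.72 for *Stra6* (0.694 to 263), where the exact binomial intervals cover counting error only. Both intervals include no difference, so that none was detectable for either gene at this depth.

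*Aldh1a1*, a retinal dehydrogenase, was at 1341, 2407 and 1816 normalized counts in Stem and at 2527, 2714 and 2514 in TGF-β. The Stem libraries were widely spread, and the highest of them came close to the lowest TGF-β library without reaching it. The log2 fold change was 0.48 ± 0.161 (SE), from a mean of 1855 ± 534 to 2585 ± 112 (n = 3 each). It was 0.29 without Stem replicate 1 and 0.72 without Stem replicate 2, the library that stood apart. It no longer passed the adjusted p threshold without Stem replicate 3 or with DESeq2.

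*Aldh1a2*, the dehydrogenase best known from embryonic development, was at 1601, 1937 and 1958 normalized counts in Stem and fell to 930.2, 931 and 932.4 in TGF-β. *Aldh1a3*, the third enzyme of the family, was at 1602, 1874 and 1752 in Stem and at 941, 880.3 and 877.7 in TGF-β. The levels of both genes were thus lower in every TGF-β library than in any Stem library, with log2 fold changes of -0.98 ± 0.0784 (SE) for *Aldh1a2* and -0.95 ± 0.0909 (SE) for *Aldh1a3*. Both lay just inside the fold change minimum and were not called. They passed it when total counts replaced the scaling (-1.09 and -1.07), which shifted the median of all genes to -0.12, and when Stem replicate 1 was left out (-1.06 and -1.01).

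Per length of transcript, the makeup of the dehydrogenase pool differed between the groups. Reads scaled by exon union length and effective library size (RPKM) summed over the 3 genes to 37.9 ± 5.25 in Stem and 27.4 ± 0.495 in TGF-β (n = 3 each). *Aldh1a2* supplied 51.97% ± 2.65 of this sum in Stem, and *Aldh1a1* and *Aldh1a3* supplied 23.7% ± 3.77 and 24.3% ± 1.62. In TGF-β, *Aldh1a1* had the largest share at 46.3% ± 1.23, ahead of *Aldh1a2* at 36.4% ± 0.677 and *Aldh1a3* at 17.3% ± 0.775. The share of *Aldh1a1* was between 20.5% and 27.9% in the Stem libraries and between 45.4% and 47.7% in the TGF-β libraries. The sum and the shares depend on the length given to each gene. With the longest transcripts the sum was 51.04 ± 8.302 RPKM in Stem and 42.95 ± 1.065 in TGF-β. The libraries then overlapped, from 42.27 to 58.78 in Stem and from 42.08 to 44.14 in TGF-β. With the longest annotated transcript of *Aldh1a1*, which is 2358 bases against 4937 for its exon union, its share was 36.9% in Stem and 62.0% in TGF-β, and that of *Aldh1a2* was 38.8% in Stem. *Aldh1a1* was then ahead in Stem replicate 2, at 42.2% against 35.4%, and the Stem ranges of these genes overlapped.

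**Figure D2:**
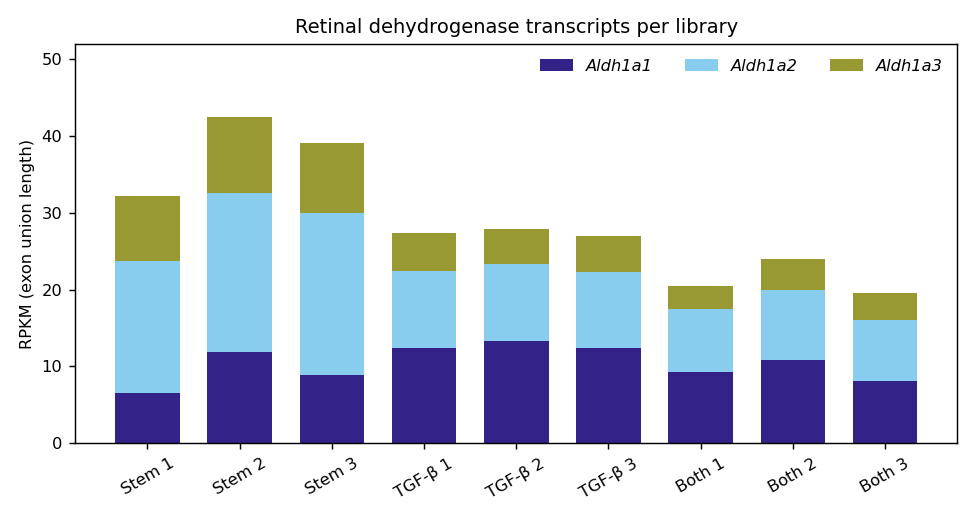
RPKM of the 3 retinal dehydrogenase genes (vertical axis, from 0) stacked for each library, with the length of the exon union. The light segment of *Aldh1a2* is the tallest in the Stem libraries, and the dark segment of *Aldh1a1* is the tallest in each TGF-β and Both library.

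*Dhrs3*, which draws retinal away from the dehydrogenases, was at 436.6, 624.8 and 512.8 normalized counts in Stem. In TGF-β it was at 2988, 3133 and 2912. The groups lay far apart against their spread, with means of 525 ± 94.7 and 3011 ± 112 (n = 3 each) and a log2 fold change of 2.52 ± 0.0986 (SE), or 5.74-fold. The direction held when each library was left out in turn, with values from 2.41 to 2.67.

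*Crabp2* was nearly silent in Stem, with 4, 7 and 3 reads in the libraries, or 4.19, 7.61 and 3.25 normalized counts. In TGF-β it was at 978.7, 1381 and 1093 normalized counts. Its mean went from 5.01 ± 2.30 to 1151 ± 208 (n = 3 each), a log2 fold change of 7.81 ± 0.34 (SE), or 225-fold. This size rests on 14 Stem reads in all, for which the ratio of summed reads was 231 with a 95% interval of 137 to 422 from counting error alone.

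*Crabp1*, the other carrier, moved the opposite way at a far lower level. It was at 23.0, 18.5 and 29.2 normalized counts in Stem and at 3.24, 5.07 and 7.81 in TGF-β. The log2 fold change was -2.09 ± 0.355 (SE), and the ratio of summed reads gave a 4.33-fold fall with a 95% counting interval of 2.48 to 8.01. The 2 carriers thus stood in opposite order in the 2 groups, though both were low in Stem. Per length, *Crabp1* was above *Crabp2* in Stem (0.714 ± 0.163 against 0.0921 ± 0.0421 RPKM), and *Crabp2* was above *Crabp1* in TGF-β (21.1 ± 3.81 against 0.163 ± 0.0697 RPKM).

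*Cyp26b1*, the enzyme that clears retinoic acid, was at 1468, 1145 and 1356 normalized counts in Stem. It was at 155.4, 121.7 and 98.6 in TGF-β. Every TGF-β library was far below the lowest Stem library, and the log2 fold change was -3.41 ± 0.136 (SE), a 10.6-fold fall from a mean of 1323 ± 164 to 125 ± 28.6 (n = 3 each). The other hydroxylases of the family, *Cyp26a1* and *Cyp26c1*, had at most 2 reads in any library, so that *Cyp26b1* supplied almost all CYP26 reads in every group.

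With PFI-3 added to TGF-β, *Crabp2* was lower, and the mean level of each other tested gene was within 1.35-fold of that in TGF-β. Of the 7 tested genes, none was called higher and 1 was called lower, where 0.161% and 0.47% of all tested genes were called higher and lower. Without the fold change minimum, 2 passed the adjusted p threshold (8.92% of all tested genes did), and the groups of 4 did not overlap (32.7% of all). The median log2 fold change over the 7 genes was -0.25, the value of *Aldh1a2*, and that over all tested genes was -0.0020. It again describes chosen genes that moved in both directions.

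*Crabp2* was at 345.7, 601.1 and 460.8 normalized counts in Both, below all 3 TGF-β libraries. The log2 fold change from TGF-β to Both was -1.30 ± 0.168 (SE), or 2.46-fold lower, with a range of -1.51 to -1.12 when each library was left out in turn. Its level in Both was still far above that in Stem, with a log2 fold change of 6.51 ± 0.379 (SE). In a test against a 2-fold change itself (TREAT in edgeR), *Crabp2* did not pass.

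*Aldh1a3* was at 569.9, 768.9 and 690.7 normalized counts in Both, below every TGF-β library, with a log2 fold change of -0.41 ± 0.0947 (SE). It was the other gene to pass the adjusted p threshold alone, and it no longer did when any TGF-β replicate, Both replicate 1 (-0.30) or Both replicate 3 was left out. *Aldh1a2* was at 764.4, 853.8 and 730.2 in Both and *Aldh1a1* at 1891, 2206 and 1658, also below every TGF-β library. Their log2 fold changes were -0.25 ± 0.0809 (SE) and -0.43 ± 0.16 (SE), and neither passed the adjusted p threshold. Both genes passed it in the fit of the 6 compared libraries, with a replicate block, with no filter and without Stem replicate 1 or 2, and *Aldh1a2* also without Both replicate 2 (-0.32). The dehydrogenase sum was 21.4 ± 2.35 RPKM in Both, with *Aldh1a1* at 44.0% ± 2.13 of it, *Aldh1a2* at 39.3% ± 1.09 and *Aldh1a3* at 16.7% ± 1.96.

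*Dhrs3* was at 2778, 3177 and 2884 normalized counts in Both, a range that takes in all 3 TGF-β libraries (log2 fold change -0.03 ± 0.0865, SE). *Cyp26b1* was at 178.3, 174.7 and 152.7 in Both and overlapped TGF-β, with a log2 fold change of 0.43 ± 0.159 (SE). *Crabp1* was at 4.50, 7.90 and 6.14 in Both, overlapping TGF-β at a handful of reads (0.17 ± 0.452, SE). None of these 3 genes passed the adjusted p threshold between TGF-β and Both, although *Cyp26b1* passed it with a replicate block, with no filter, without Stem replicate 2 (0.44) and without TGF-β replicate 1 (0.61).

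Set against Stem, *Crabp2* and *Dhrs3* were higher in Both, and *Crabp1*, *Cyp26b1*, *Aldh1a2* and *Aldh1a3* were lower. These were 2 genes called higher and 4 called lower, where 9.55% and 13.2% of all tested genes were called higher and lower. Of the 7, 6 passed the adjusted p threshold alone (73.3% of all tested genes) and 6 had groups without overlap (74.7%). *Aldh1a2* (log2 fold change -1.23 ± 0.0789, SE) and *Aldh1a3* (-1.37 ± 0.0924, SE) were past the fold change minimum here. *Dhrs3* (2.49 ± 0.0984, SE), *Cyp26b1* (-2.97 ± 0.129, SE) and *Crabp1* (-1.92 ± 0.338, SE) were called in the same directions as in TGF-β against Stem, a comparison that shares the Stem libraries. *Aldh1a1* lay at 0.05 ± 0.162 (SE) with overlapping groups, and its sign turned with total counts (-0.05), without Stem replicate 1 (-0.13) and without Both replicate 2 (-0.06), and it was 0.29 without Stem replicate 2. The median over the 7 chosen genes, which lay on both sides of Stem, was -1.23, the value of *Aldh1a2*. That over all tested genes was -0.0046.

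**Figure D3:**
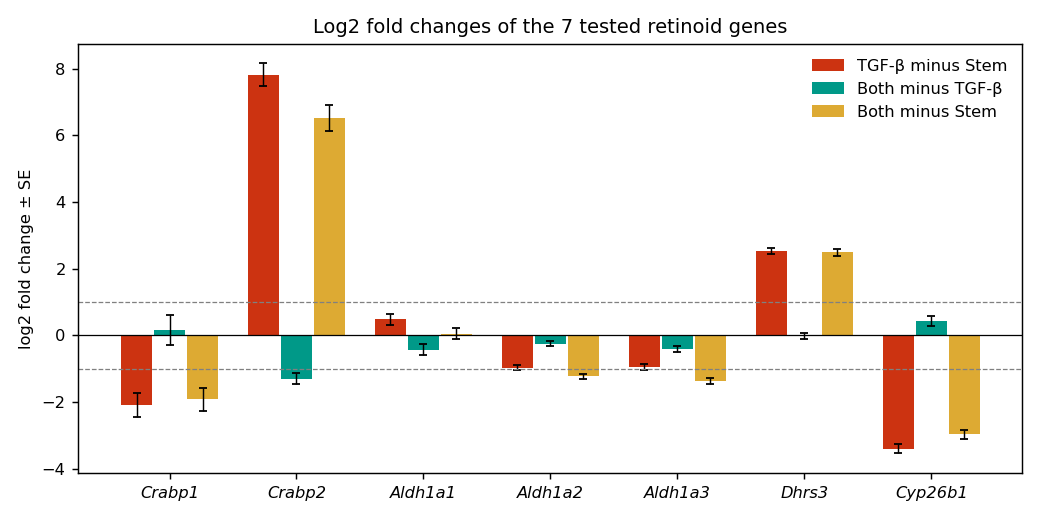
Log2 fold change with its standard error (bars and whiskers, vertical axis) of the 7 tested retinoid genes in the 3 comparisons, with dashed lines at -1 and 1. The *Crabp2* bar is the tallest against Stem and the only one below -1 between TGF-β and Both.

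The order of the 9 genes by level per length differed between Stem and the other groups. In Stem the order in RPKM was *Aldh1a2* (19.7), *Aldh1a3* (9.16), *Aldh1a1* (9.12), *Cyp26b1* (6.002), *Dhrs3* (4.35), *Crabp1* (0.714), *Crabp2* (0.0921), *Rbp4* (0.0710) and *Stra6* (0.00145). *Aldh1a3* and *Aldh1a1* overlapped between libraries, as did *Aldh1a1* and *Cyp26b1*, and *Crabp2* and *Rbp4*. In TGF-β the leading genes were *Dhrs3* (24.98) and *Crabp2* (21.1), which overlapped, ahead of *Aldh1a1* (12.7), *Aldh1a2* (9.99), *Aldh1a3* (4.73), *Cyp26b1* (0.568) and *Crabp1* (0.163). In Both, *Dhrs3* (24.4) led alone, and the ranges of *Aldh1a1* (9.43), *Crabp2* (8.62) and *Aldh1a2* (8.40) overlapped between libraries. Within each Both library, *Aldh1a1* was above *Aldh1a2*. The libraries of *Rbp4* lay at or below 0.1249 RPKM and those of *Stra6* at or below 0.0122 RPKM in every group. With the length of the longest transcript the order kept its places but for *Aldh1a1* and *Aldh1a3* in Stem, which exchanged ranks 2 and 3.

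Promoter windows were searched for letters of the elements that retinoic acid receptors and Smad proteins, the mediators of TGF-β signalling, are known to bind. RefSeq windows of the GRCm38.p6 build, from 250 bases before to 50 after an annotated start, were at hand for 7 of the genes, in 14 windows. There was none for *Crabp2* or *Aldh1a3*. The letters searched were the receptor hexamer as AGGTCA or with the letters AGTTCA or the letters GGGTCA or the letters GGTTCA, on either strand, its direct repeats with 1, 2 or 5 bases between, and the Smad element GTCTAGAC with its core GTCT. The upstream parts of the windows for the gene with the largest rise that had a window, the gene with the largest fall and the gene with a hexamer among those tested read as follows, 5′ to 3′ on the gene's strand, with the hexamer in capitals.
*Dhrs3* (chr4:144892577-144892826, plus strand): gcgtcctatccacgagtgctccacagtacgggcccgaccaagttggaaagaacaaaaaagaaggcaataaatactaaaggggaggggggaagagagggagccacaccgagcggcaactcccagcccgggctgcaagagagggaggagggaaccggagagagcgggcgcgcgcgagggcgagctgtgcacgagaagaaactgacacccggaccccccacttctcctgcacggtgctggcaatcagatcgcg
*Cyp26b1* (chr6:84593811-84594060, minus strand): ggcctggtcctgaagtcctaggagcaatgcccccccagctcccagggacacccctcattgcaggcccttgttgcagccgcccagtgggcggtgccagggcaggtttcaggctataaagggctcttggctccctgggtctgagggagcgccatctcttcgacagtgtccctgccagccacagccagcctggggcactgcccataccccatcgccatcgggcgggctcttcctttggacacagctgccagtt
*Aldh1a1* (chr19:20601718-20601967, plus strand, the second of its windows): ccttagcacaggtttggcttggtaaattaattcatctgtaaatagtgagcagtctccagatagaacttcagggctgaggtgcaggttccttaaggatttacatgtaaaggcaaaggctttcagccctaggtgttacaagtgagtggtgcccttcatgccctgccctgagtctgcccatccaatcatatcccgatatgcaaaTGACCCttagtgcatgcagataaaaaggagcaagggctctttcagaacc
The *Aldh1a1* window held TGACCC, the reverse complement of GGGTCA, at position -49 from the start. *Dhrs3* and *Cyp26b1* held no hexamer in any window. Outside the 7 tested genes, 1 of the windows of *Rbp4* and 1 of *Stra6* held a hexamer. The shares were counted over 32851 windows, with each start of a gene taken once and 1 chromosome left out. A hexamer stood in 43.7% of them, a direct repeat in 0.588% and GTCTAGAC in 0.213%. None of the 14 windows held a direct repeat or GTCTAGAC. The core GTCT, on either strand, stood in 88% of the windows counted, with 1 match in each *Dhrs3* window and 2 in that of *Cyp26b1*. These counts take in the 50 bases after the start, which are not printed. The match of the printed *Dhrs3* window, the first of its windows, lay there.

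Genes whose pattern was nearest to that of a retinoid gene were ranked over the 9 libraries by the Euclidean distance between log2(normalized counts + 1), each centred on its own mean, among 10871 genes with a mean of at least 100 normalized counts. For *Crabp2* these were *Atp2a3* (distance 1.23), a calcium pump of the endoplasmic reticulum, *Itga4* (1.41), an integrin subunit, and *Wnt10b* (1.45), a secreted Wnt ligand. Like *Crabp2*, they were near 0 in Stem, highest in TGF-β and lower in Both. *Itga4* was at 10.3 ± 2.54, 1273 ± 16.0 and 891 ± 106 normalized counts in the 3 groups, and *Wnt10b* had no read in Stem, 281 ± 45.0 with TGF-β and 154 ± 17.9 with PFI-3 added. For *Cyp26b1* the nearest were *Pde7b* (0.493), a cyclic AMP phosphodiesterase, *Hgf* (0.551), hepatocyte growth factor, and *Jade2* (0.632). *Hgf* was at 8788 ± 462, 936 ± 112 and 1081 ± 56.6 normalized counts. For *Aldh1a1* they were *Fst* (0.364), which encodes the activin antagonist follistatin, *Blvra* (0.378), a biliverdin reductase, and *Fam84b* (0.426).

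**Figure D4:**
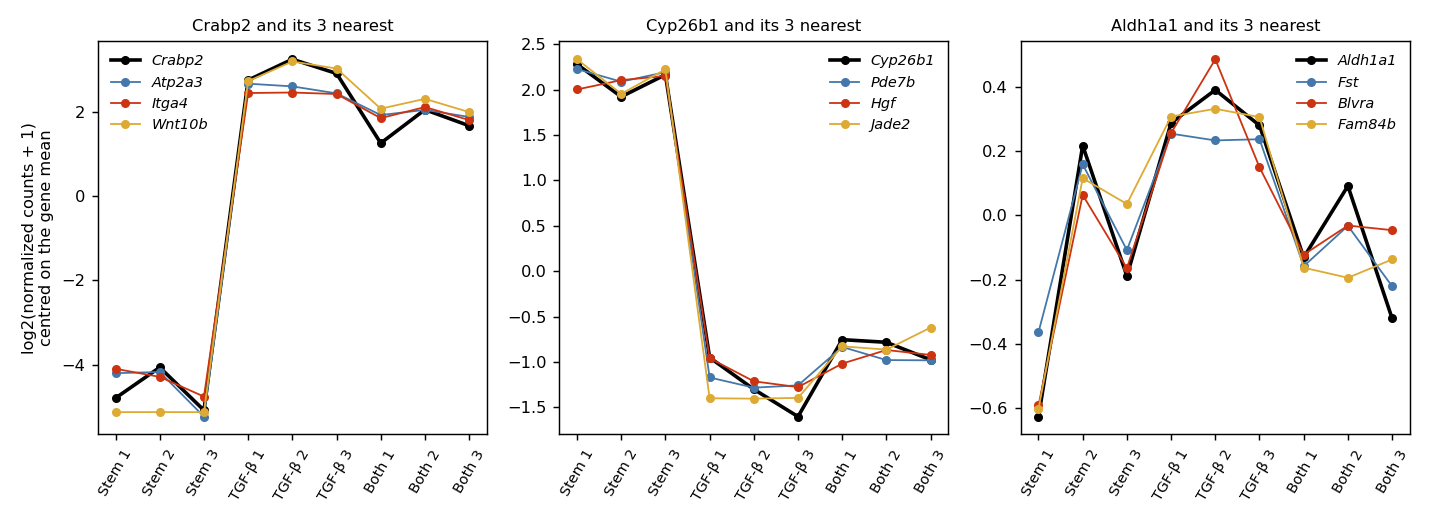
Log2(normalized counts + 1), centred on the mean of each gene, over the 9 libraries for *Crabp2*, *Cyp26b1* and *Aldh1a1* (black) and the 3 nearest genes of each. The *Crabp2* set is low in Stem and highest in TGF-β, the *Cyp26b1* set is high in Stem alone, and the *Aldh1a1* panel has a far narrower vertical axis.

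The rest of the retinoid machinery was covered by 51 further genes, of which 29 were tested. Between Stem and TGF-β, 3 were called higher, 3 lower and 23 were not called, where 10.6% and 14.5% of all tested genes were called higher and lower, and their median log2 fold change was -0.0085. Among carriers and uptake genes, *Lrp2*, which encodes the endocytic receptor megalin, rose from 47.6 ± 20.1 to 1408 ± 118 normalized counts (log2 fold change 4.88 ± 0.158, SE; adjusted p = 5.39e-11, edgeR). Its raw counts were 67, 29 and 38 in Stem and 1380, 1255 and 1497 in TGF-β. *Fabp5*, which can carry retinoic acid to PPARδ, was at 429 ± 13.6 in Stem and 659 ± 16.3 in TGF-β (0.62 ± 0.0697, SE).

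The enzymes between retinol and retinal moved in both directions. *Adh1*, an alcohol dehydrogenase that oxidises retinol, fell from 1304 ± 111 to 34.8 ± 3.97 normalized counts (log2 fold change -5.23 ± 0.107, SE; adjusted p = 1.40e-12, edgeR), with 1233, 1105 and 1313 reads in Stem and 34, 37 and 31 in TGF-β. *Rdh10*, the main retinol dehydrogenase of the embryo, fell from 1294 ± 130 to 533 ± 22.3 (-1.28 ± 0.0759, SE; adjusted p = 1.39e-08, edgeR). *Rdh11*, a retinal reductase, rose from 1672 ± 43.2 to 3830 ± 29.6 (1.20 ± 0.0499, SE; adjusted p = 5.30e-10, edgeR), and *Rdh5*, a retinol dehydrogenase best known from the eye, rose from 26.9 ± 8.96 to 108 ± 6.72 (2.01 ± 0.219, SE; adjusted p = 3.94e-06, edgeR). *Lipe*, a lipase that also splits retinyl esters, fell (-1.16 ± 0.141, SE; adjusted p = 1.03e-05, edgeR). Of 13 tested oxidoreductases, 2 were called higher and 2 lower, again beside 10.6% and 14.5% of all tested genes.

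The receptors and their partners stayed within the fold change minimum, with none of 6 tested receptors and none of 6 coregulators called. Of all tested genes, 10.6% were called higher and 14.5% lower, and lists of 6 are too short to be set apart from these shares. Without the minimum, 4 of the 6 receptors and 5 of the 6 coregulators passed the adjusted p threshold, as did 75% of all tested genes. *Rarg* was higher in TGF-β (0.72 ± 0.0661, SE) and *Rxra* lower (-0.33 ± 0.0458, SE). In Both against TGF-β, edgeR called 0.161% of all tested genes higher and 0.47% lower. Near that share, none of the 29 genes was called by edgeR or by DESeq2. At an unadjusted p under 0.05 there were 6, but the share of all tested genes at that threshold was not computed. The adjusted threshold alone was passed by 2 (8.92% of all tested genes did), both lower in Both: *Fabp5* (-0.29 ± 0.0675, SE; adjusted p = 0.0189, edgeR) and *Nrip1* (-0.17 ± 0.0363, SE; adjusted p = 0.0126, edgeR), a corepressor. Against Stem, Both had 3 called higher and 3 lower, beside 9.55% and 13.2% of all tested genes.

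Genes described as induced by retinoic acid, the 9 retinoid genes left out, numbered 19, with 13 tested. In TGF-β against Stem, 1 was called higher and 3 lower, where 10.6% and 14.5% of all tested genes were, with a median log2 fold change of 0.0020. *Tgm2*, a transglutaminase, rose (2.44 ± 0.117, SE; adjusted p = 1.81e-09, edgeR). *Rarres1* (-1.42 ± 0.0826, SE; adjusted p = 1.17e-08, edgeR) and *Rarres2*, which encodes the chemoattractant chemerin (-3.76 ± 0.722, SE; adjusted p = 0.000479, edgeR), fell. *Rarres2* had 18, 29 and 9 reads in Stem against 0, 2 and 2 in TGF-β. The homeobox gene *Meis1* fell from 3382 ± 71.5 to 1302 ± 26.01 (-1.38 ± 0.0414, SE; adjusted p = 2.84e-11, edgeR). The receptor gene *Rarb*, often read as a reporter of retinoic acid, was at 49.5 ± 8.15 in Stem, at 73.9 ± 13.2 with TGF-β and at 92.8 ± 3.30 with PFI-3 added, and passed the adjusted p threshold against Stem but not the fold change minimum in TGF-β (0.58 ± 0.173, SE; adjusted p = 0.00943, edgeR).

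In Both against TGF-β, where edgeR called 0.161% of all tested genes higher and 0.47% lower, the targets lay near that share. None of the 13 targets was called by edgeR or DESeq2. There were 6 at an unadjusted p under 0.05, again without a computed share of all tested genes. The 3 that passed the adjusted threshold alone, as did 8.92% of all tested genes, were *Nrip1*, given above, *Tgm2*, lower in Both (-0.54 ± 0.104, SE; adjusted p = 0.00798, edgeR), and *Meis1*, higher in Both (0.29 ± 0.0419, SE; adjusted p = 0.00118, edgeR). Against Stem, Both had 1 called higher and 3 lower, beside 9.55% and 13.2% of all tested genes. *Rarb*, *Nrip1*, *Cyp26a1* and *Lrat* also stand in the list of retinoid machinery.

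**Figure D5:**
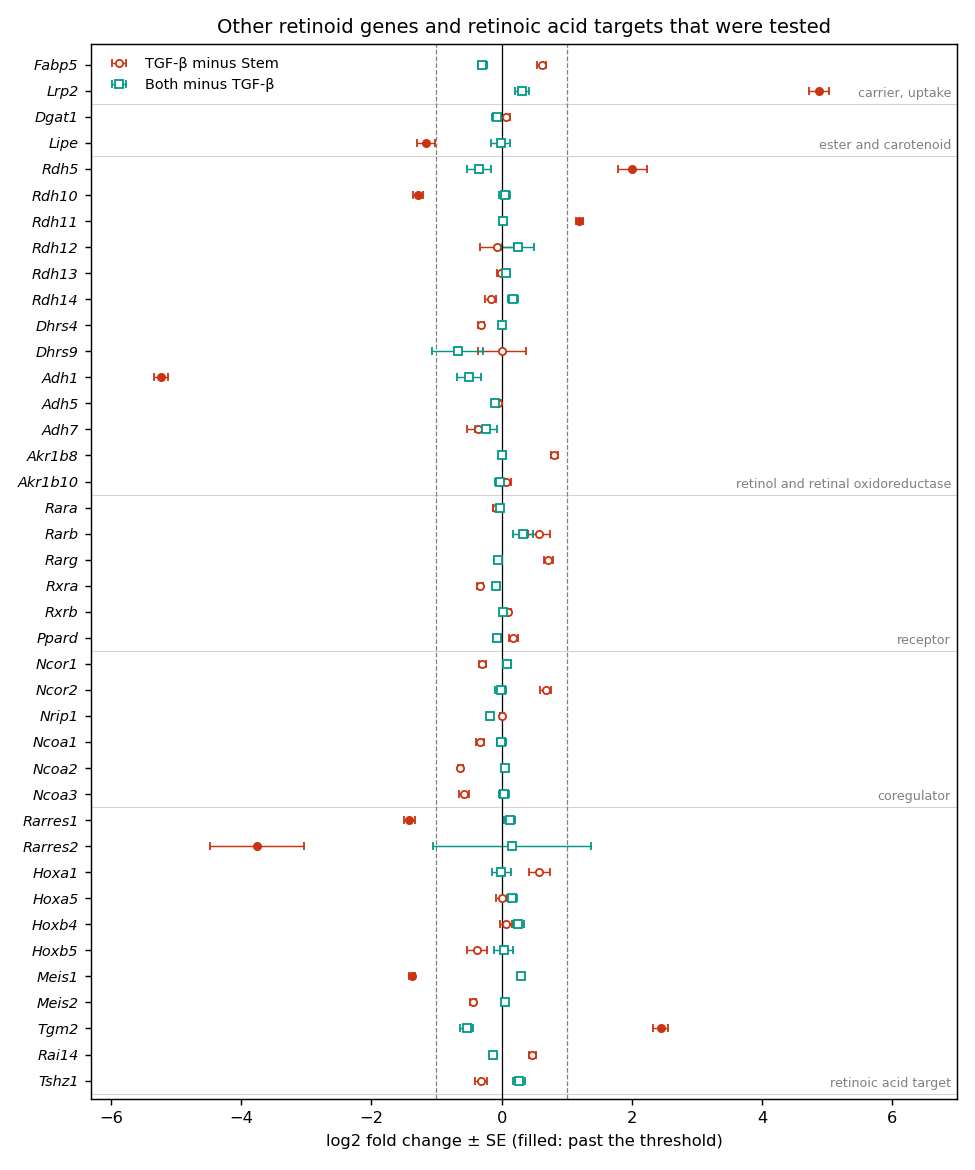
Log2 fold change with its standard error (horizontal axis) of the tested genes of the wider retinoid machinery and of retinoic acid targets, grouped by role, for TGF-β minus Stem (circles) and Both minus TGF-β (squares), with dashed lines at -1 and 1. Filled symbols passed both thresholds, and every filled symbol is a circle.

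Markers of the labelled cell type also differed between the groups. The summed level of 6 adventitial progenitor markers was 54276 to 62685 normalized counts in Stem, 12792 to 12944 in TGF-β and 12714 to 13346 in Both, and *Pdgfra* carried most of it. In TGF-β against Stem, *Pdgfra*, *Ly6a*, *Cd34* and *Scara5* were called lower, *Gli1* was called higher, from at most 2 reads in a Stem library to 10, 12 and 12 in TGF-β, and *Klf4* was higher without passing the fold change minimum (0.72 ± 0.0349, SE). The sum of 5 smooth muscle markers was 10110 to 12817 in Stem, 22400 to 24827 in TGF-β and 17141 to 18069 in Both. *Acta2* and *Tagln* were called higher in TGF-β than in Stem, *Myh11* was called lower (-1.58 ± 0.208, SE), and *Cnn1* (-0.18 ± 0.121, SE) and *Smtn* (-0.06 ± 0.0829, SE) did not pass the adjusted p threshold. Of the other lists, 2 of 5 endothelial, 2 of 5 leukocyte, 1 of 4 adipocyte, 2 of 5 mesothelial and 2 of 4 Schwann markers had enough reads to be tested, with *Adgre1*, *Itgam*, *Cidec* and *Sox10* at 0 in every library. The endothelial sum was 48.7 to 59.8 in Stem, 50.7 to 67.4 in TGF-β and 48.3 to 65.2 in Both, within which *Kdr* was called higher in TGF-β than in Stem (0, 0 and 2 reads against 21, 25 and 31) and *Tek* lower (42, 50 and 36 against 14, 18 and 22). The leukocyte sum was 19.6 to 41.9, 71.0 to 103 and 152 to 156, the adipocyte sum 183 to 217, 39.6 to 44.9 and 38.7 to 52.7, and the mesothelial sum 36.9 to 49.2, 74.0 to 123 and 80.9 to 118. The Schwann sum was 42.9 to 51.1, 377 to 438 and 241 to 254. The part of these shifts in the retinoid differences was not tested, and in bulk RNA fewer cells of a kind and less RNA per cell cannot be told apart. The labels' extraction text speaks of hepatic tissue. Of 6 hepatocyte markers, 5 had at most 3 reads in every library, and their sum was 32.6 to 48.2 in Stem, 29.1 to 31.4 in TGF-β and 13.2 to 18.9 in Both.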

How the data were processed

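The deposited table held raw read counts per Ensembl gene for 9 libraries of ribosome-depleted RNA, sequenced in pairs. The authors' methods name Flexbar and STAR, whereas the submitters' processing notes name HISAT2 2.2.1, SAMtools 1.13 and HTSeq 0.11.3, and both name the GRCm39 build. How multiply mapped reads were treated and which strand setting the counting used are not given in the sources used here. Symbols were matched for 52083 of 55416 genes. No retinoid gene shares exon sequence with another gene in GENCODE vM21, which also gave the lengths behind RPKM.

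Here edgeR 4.0.16 in R 4.3.3 was run on the counts with filterByExpr, scaling by the trimmed mean of M values and 1 quasi-likelihood fit of all 9 libraries, without covariates. P-values were adjusted by Benjamini and Hochberg's method over all 14879 genes tested. The procedure was tested on simulated data for TGF-β against Stem only. Changes were placed in genes above a minimum level, so changes in genes with few reads were not covered. Alternatives were DESeq2 1.42.0, other scalings, filters, prior counts and call rules, a replicate block, and each library left out. Those on target genes and on transcript length were added after seeing the data. The members and the gene lists were chosen with earlier results of these data known, and 1 gene of the further lists is not reported here and was left out of their counts. Genes were named if they were among the 9, if they passed the threshold in at least 1 comparison from the 2 further lists, or if they were among the 3 nearest in pattern to *Crabp2*, *Cyp26b1* or *Aldh1a1*, the genes with the largest rise, the largest fall and the largest other change with PFI-3. *Fabp5*, *Nrip1*, *Rarg*, *Rxra*, *Rarb*, *Lrat*, *Cyp26a1*, *Cyp26c1* and the markers were named outside this rule, after their values were seen.

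Same-numbered libraries did not deviate together in every pair (correlations from -0.0601 to 0.177, and from -0.156 to 0.148 for different numbers), so the numbers were not taken as pairs. Those of replicate 2 were positive in all 3 comparisons (0.148, 0.117 and 0.177). A pairing is therefore not excluded, and the replicate block was fitted as an alternative.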

Additional observations from a re-analysis of the deposited data

How the results depend on the processing

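The 21 log2 fold changes of the 7 tested retinoid genes had 356 alternative values. Of these, 346 kept their call by adjusted p and fold change together without turning sign, 4 gained the call and 6 turned sign. The call rules without a fold change minimum and with TREAT are not among these values and are given below. By adjusted p alone, 23 of the 356 changed side (16 gained, 7 lost), in *Aldh1a1* and in the Both against TGF-β values of *Aldh1a2*, *Aldh1a3* and *Cyp26b1*. *Aldh1a1* in Both against Stem passed it only without Stem replicate 2. The signs that turned were those of values near 0. *Aldh1a1* in Both against Stem was -0.05 with total counts and ranged from -0.13 to 0.29 when each library was left out. *Crabp1* and *Dhrs3* in Both against TGF-β ranged from -0.07 to 0.54 and from -0.09 to 0.01 when each library was left out, turning sign without TGF-β replicate 1 (-0.07) or Both replicate 2 (-0.03) for *Crabp1* and without Both replicate 1 (0.01) for *Dhrs3*. *Crabp1* gave no value there in the fit of the 6 compared libraries, since it failed the filter. The called retinoid genes in TGF-β against Stem were 4, and 7 without the fold change minimum. Total counts or leaving out Stem replicate 1 gave 6, where 3802 and 3837 of all genes were called. In Both against TGF-β they were 1, and 2 without the minimum and 0 in the TREAT test. Without the fold change minimum, the further retinoid genes called numbered 18, 2 and 21 and the targets 10, 3 and 11 for TGF-β against Stem, Both against TGF-β and Both against Stem, against 6, 0 and 6 and 4, 0 and 4 with it. Genes called overall were 3739, 94 and 3385, and 11158, 1327 and 10900 without the minimum, 2479, 4 and 2104 in the TREAT test, and 163 without a filter in Both against TGF-β. Total counts moved the median of all genes to -0.12 in TGF-β and -0.11 in Both against Stem. The replicate block gave 3736, 120 and 3394 genes overall and 4, 1 and 6 retinoid genes, and changed no retinoid call, though *Aldh1a1*, *Aldh1a2* and *Cyp26b1* then passed adjusted p alone in Both against TGF-β. RPKM with the longest transcript was higher for genes with several transcripts, such as *Aldh1a1* at 19.1 in Stem against 9.12. Low counts limit *Rbp4*, *Stra6*, *Crabp1*, *Rarres2* and the Stem level of *Crabp2*.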
